A study of Mus musculus with 6 samples.

Results

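The genes described here are the G1 cyclins Ccnd1, Ccnd2, Ccnd3, Ccne1 and Ccne2, the kinases Cdk4 and Cdk6, the inhibitors Cdkn1b and Cdkn2c, and the retinoblastoma gene Rb1. These 10 symbols were chosen by name, as regulators of G1 and of entry into S phase, and all 10 were found among the 21233 genes of the count and FPKM tables. RNA was measured in 6 libraries of mouse Th9 cells, a CD4 T helper cell that secretes interleukin 9. The sorafenib group (Sora) held 3 libraries of treated cells and the control group (Ctrl) 3 libraries of cells without sorafenib, an inhibitor of RAF kinases and of several receptor tyrosine kinases. The labels state no mouse strain, age, drug dose or time of treatment. The labels do not say whether replicates came from separate cultures, so p-values measure the scatter of these libraries alone, and part or all of it may be technical.

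A cell commits to division in G1. Mitogen signals raise the D cyclins, which activate Cdk4 and Cdk6, and these kinases phosphorylate the Rb1 product so that E2F factors are released. E2F factors then raise the E cyclins, which activate Cdk2 at the G1/S boundary. The Cdkn1b product p27Kip1 restrains Cdk2, and the Cdkn2c product p18INK4c restrains Cdk4 and Cdk6. Resting T cells are known for high p27Kip1 and low D cyclin, and stimulation through the antigen receptor and interleukin 2 reverses both, with Ccnd2 and Ccnd3 as the main lymphocyte D cyclins.

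Total counts lay between 36981476 and 38126521 per library. CPM below are counts scaled to library size with TMM factors, which correct for differences in composition. FPKM are counts scaled to gene length and library size, without TMM factors. Il9 averaged 266 ± 15.4 CPM in Sora and 192 ± 18.8 CPM in Ctrl libraries (SD, n = 3 each), and Cd4 averaged 496 ± 10.7 CPM in Sora and 476 ± 35.9 CPM in Ctrl, so both were present in both groups. Of the other Th9 genes listed, Irf4, Batf and Gata3 averaged at least 61.1 CPM in either group. Spi1 and Il9r were low, at 0.928 and 1.56 CPM in Sora and 0.552 and 0.478 CPM in Ctrl. One control library, Ctrl replicate 2, stood apart. Its genes differed from the other control libraries by a median of 0.25 and 0.21 on the log2 scale, against 0.13 between those, and its deviation ran with gene length (Spearman's rho of -0.47 across 13255 genes, given as a description). With genes split by length into 5 equal classes, the median log2 difference of Ctrl replicate 2 from the other controls was 0.26 in the shortest class and -0.22 in the longest. Differences that rest on it are given with and without it.

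Of the G1 genes, 1 changed with sorafenib. Ccne2, which encodes cyclin E2, fell 1.79-fold, while the D cyclins, Ccne1, Cdk4, Cdk6, both inhibitors and Rb1 did not pass the test. The test was edgeR's quasi-likelihood test fitted to all 13255 genes that had enough counts, with p-values adjusted by Benjamini-Hochberg over all of them and a threshold of 0.05. By this test 17.9% of all tested genes were called, 8.51% higher and 9.43% lower, so that 1 of 9 tested G1 genes (11.1%) is near the background. The split over all genes, 1128 higher and 1250 lower, was 1496 and 826 with total counts alone and 1398 and 744 with filtered FPKM. The median log2 fold change was -0.06 over the 9 genes and -0.01 over all tested genes, and the median absolute change was 0.06 and 0.18.

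**Figure D1:**
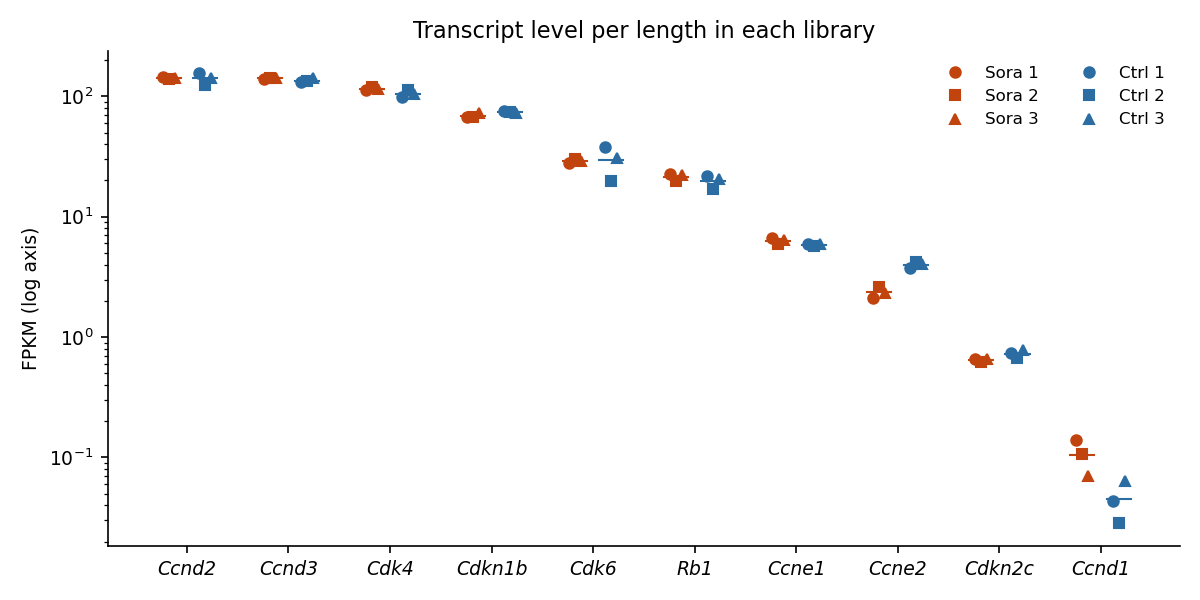
FPKM of the 10 genes on a log axis, ordered by their mean in Sora libraries, with 1 point per library and a line at the mean of each group of 3. Ccnd2, Ccnd3 and Cdk4 exceed 98 FPKM in every library, Ccne2 lies lower in each Sora library than in each Ctrl library, and Ccnd1 lies below 0.14 FPKM.

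Per length, Ccnd2 and Ccnd3 were the highest of the 10 transcripts in both groups. Ccnd2 averaged 143 ± 3.6 FPKM in Sora and 141 ± 15.1 FPKM in Ctrl libraries, and Ccnd3 averaged 142 ± 2.07 FPKM in Sora and 135 ± 5.26 FPKM in Ctrl (SD, n = 3 each). Their ranges overlapped within each group. Below them the order was Cdk4, Cdkn1b, Cdk6, Rb1, Ccne1, Ccne2, Cdkn2c and Ccnd1, the same in both groups. Neighbours in this order were separated in every library of a group except Ccnd2 and Ccnd3 in both groups and Cdk6 and Rb1 in Ctrl, where Cdk6 ranged from 20 to 37.8 FPKM and Rb1 from 17.1 to 21.9 FPKM. The span was wide: Cdkn2c averaged 0.642 FPKM in Sora and 0.724 FPKM in Ctrl, and Ccnd1 0.105 FPKM in Sora and 0.0449 FPKM in Ctrl.

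Among the D cyclins, which bind Cdk4 and Cdk6, Ccnd2 had 1182, 1110.2 and 1149 CPM in Sora replicates 1 to 3 and 1273, 1123 and 1181 CPM in Ctrl replicates 1 to 3. The groups overlapped, with the lowest library in Sora and the highest in Ctrl. The log2 fold change was -0.06 ± 0.09 (SE; 95% interval -0.25 to 0.14; edgeR adjusted p = 0.721). Ccnd3 had 343, 349 and 349 CPM in Sora and 325, 364 and 357 CPM in Ctrl libraries. The Sora libraries lay inside the control range, and the log2 fold change was -0.01 ± 0.07 (SE; 95% interval -0.17 to 0.15; edgeR adjusted p = 0.958). In fold terms the intervals reached from 0.84 to 1.10 for Ccnd2 and from 0.891 to 1.11 for Ccnd3. As a share of the D cyclin FPKM, Ccnd2 took 51.1%, 49.2% and 50.05% in Sora and 54.3%, 48.4% and 50.2% in Ctrl libraries, again with overlap (exact permutation p = 0.8, two-sided, where 0.1 is the smallest p that 3 against 3 allows). The summed D cyclin level was 285 ± 1.93 FPKM in Sora and 276 ± 14.8 FPKM in Ctrl (exact permutation p = 0.7, two-sided).

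Ccnd1, the D cyclin that RAF and ERK signalling is known to raise in fibroblasts and epithelial cells, was close to the limit of detection. It had 20, 15 and 10 counts in Sora replicates 1 to 3, and 6, 4 and 9 counts in Ctrl replicates 1 to 3. Each Sora library was above each control library, by 1 count at the closest. Ccnd1 was removed by the filter on low counts and was not tested there, and 45 counts over the Sora group and 19 over Ctrl corresponded to a ratio of mean CPM of 2.25. Without the filter the log2 fold change was 1.15 ± 0.66 (SE, edgeR adjusted p = 0.32). In the GRCm38 annotation, whose gene overlaps are used here without coordinates, 1100 exonic bases of Ccnd1 are shared with LTO1 on the opposite strand. LTO1 had 732 to 740 counts in Sora and 731 to 821 in Ctrl libraries, and since the strand setting of the counting is not given, reads of the pair cannot be told apart. The summed level of 11 matched stromal, endothelial and epithelial markers was 29.6 to 31.5 CPM in Sora and 57.1 to 60.5 CPM in Ctrl. Of 5 tested, 3 were called lower, against 9.43% of all tested genes. Most of that sum was Pecam1, which T cells also express, at 27.1 CPM in Sora and 50.8 CPM in Ctrl on average. The other called genes were Epcam, at 0.559 CPM in Sora and 2.81 CPM in Ctrl, and Krt18, at 1.35 CPM and 3.25 CPM (edgeR adjusted p of 0.00163 and 0.00211). Col1a1 and Kdr were tested and not called. Pdgfrb was not tested and averaged 0.285 CPM in Sora and 0.154 CPM in Ctrl. Col1a2, Dcn, Cdh5, Krt8 and Cdh1 averaged at most 0.0819 CPM in either group. The part of these markers in the Ccnd1 counts was not tested.

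**Figure D2:**
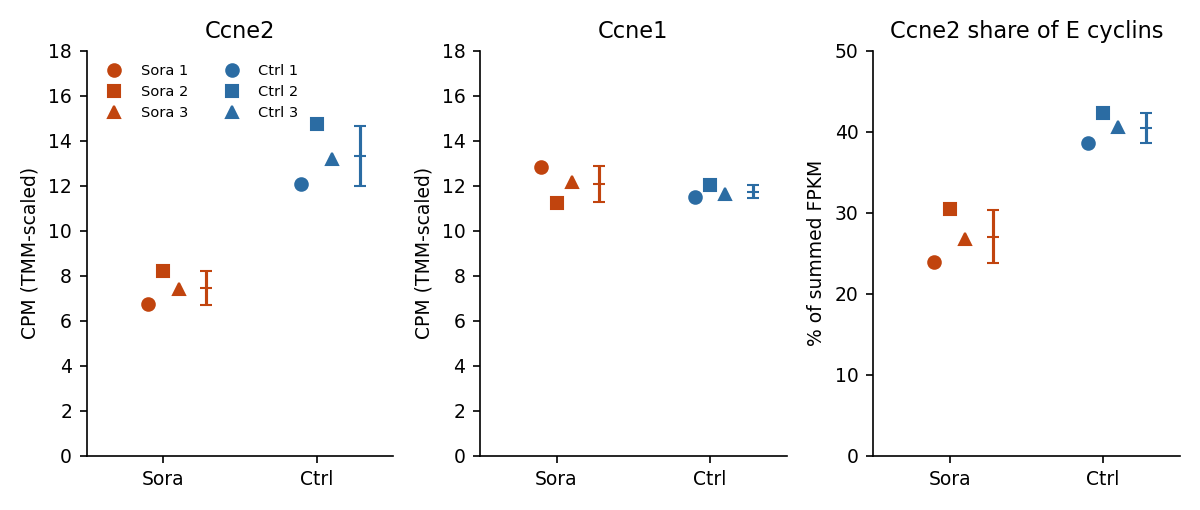
Ccne2 and Ccne1 in TMM-scaled CPM and the Ccne2 share of the summed E cyclin FPKM, with 1 point per library and the mean ± SD of 3 beside them, axes starting at 0. Ccne2 and its share are lower in each Sora library, at 6.72 to 8.22 CPM against 12.1 to 14.7 CPM in Ctrl, while the Ccne1 CPM overlap.

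The E cyclins, which activate Cdk2, separated from each other. Ccne2 had 261, 315 and 290 counts in Sora replicates 1 to 3 and 450, 507 and 495 counts in Ctrl replicates 1 to 3. In CPM these were 6.72, 8.22 and 7.41 in Sora and 12.1, 14.7 and 13.2 in Ctrl libraries. Every Sora library was lower than every control library, with a gap wider than the range of either group. The mean was 7.45 ± 0.748 CPM in Sora and 13.3 ± 1.33 CPM in Ctrl (SD, n = 3 each), a log2 fold change of -0.84 ± 0.12 (SE; 95% interval -1.11 to -0.57; edgeR adjusted p = 0.00113). Ccne2 was called lower in all 18 alternatives run, with adjusted p between 1.73e-07 and 0.0142 and log2 fold changes between -0.91 and -0.57, in fits that called 6.7% to 31.8% of all tested genes. Without Ctrl replicate 2 the log2 fold change was -0.76.

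Ccne1, which encodes the other E cyclin, had 12.8, 11.2 and 12.2 CPM in Sora and 11.5, 12.1 and 11.6 CPM in Ctrl libraries. The groups overlapped in CPM but not in FPKM, at 5.933 to 6.688 FPKM in Sora and 5.677 to 5.931 FPKM in Ctrl. The log2 fold change of 0.04 ± 0.10 (SE; 95% interval -0.18 to 0.27; edgeR adjusted p = 0.817) was less than the spread between replicates. Ccne2 therefore made up a smaller part of the E cyclin FPKM, 23.9%, 30.5% and 26.7% in Sora and 38.6%, 42.3% and 40.5% in Ctrl libraries. The shares did not overlap, and the difference of -13.4 percentage points reached the smallest p the design allows (exact permutation p = 0.1, two-sided). This share compares genes within a library and does not depend on the scaling between libraries. The summed E cyclin level was 8.79, 8.54 and 8.73 FPKM in Sora and 9.67, 9.84 and 9.91 FPKM in Ctrl libraries, without overlap (exact permutation p = 0.1, two-sided).

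Ccne2 shares 609 exonic bases with Ints8, an Integrator complex gene on the opposite strand. Ints8 had 1688, 1797 and 1686 counts in Sora and 1740, 1538 and 1691 counts in Ctrl libraries, overlapping groups with a log2 fold change of -0.03 ± 0.07 (SE, edgeR adjusted p = 0.814). The gene whose log2 CPM followed Ccne2 most closely over the 6 libraries, among 8805 tested genes of mean log2 CPM of at least 3, was Znhit1 (Pearson's r of 0.998), followed by Ly6a and Dysf (0.997 each). Their falls with sorafenib were 1.25-fold for Znhit1, 1.73-fold for Ly6a and 2.32-fold for Dysf, and as a likeness over 6 libraries in 2 groups these coefficients are a description. The Znhit1 call was lost in 4 of 18 alternatives, among them those without Sora replicate 1 or 3 or Ctrl replicate 3 (edgeR adjusted p at most 0.0898). Summed over 7 matched genes, T cell markers were also lower, at 1735 to 1810 CPM in Sora and 2042 to 2068 CPM in Ctrl. Of these 7, 4 were called lower (Cd3e, Cd3g, Cd28 and Lck), against 9.43% of all tested genes. Cd3d and Cd5 were not called, nor was Cd4, which averaged 496 CPM in Sora and 476 CPM in Ctrl (edgeR adjusted p = 0.671). Of 7 neutrophil symbols 4 were matched, and these summed to 2.58 to 2.96 CPM in Sora and 9.35 to 11.3 CPM in Ctrl. Of 3 tested, 2 were called lower, against 9.43% of all tested genes, and these, Cxcr2 and Ly6g, carried the sum. Mpo was not called, at 0.327 CPM in Sora and 0.271 CPM in Ctrl on average (edgeR adjusted p = 0.802). Elane averaged at most 0.00858 CPM in either group, and S100a8, S100a9 and Retnlg were not among the genes counted. The part of these marker lists and of the stromal list in the Ccne2 difference was not tested, and in bulk RNA fewer cells of a type and less RNA per cell cannot be told apart.

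**Figure D3:**
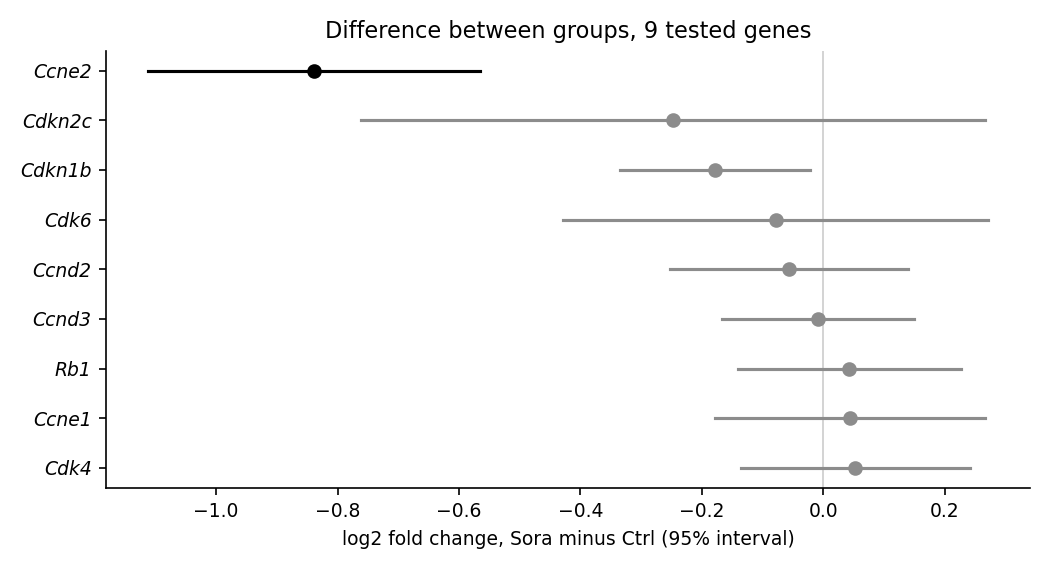
Log2 fold change, Sora minus Ctrl, of the 9 tested genes with 95% intervals from edgeR's quasi-likelihood test, black where the adjusted p was under 0.05. Ccne2 is at -0.84 with an interval clear of 0, and the intervals of 7 of the other genes include 0.

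The kinases Cdk4 and Cdk6 are alternative partners of the D cyclins. Cdk4 had 158, 164 and 159 CPM in Sora and 139, 174 and 150.4 CPM in Ctrl libraries. The Sora values lay within the control range in CPM, though not in FPKM, and the log2 fold change was 0.05 ± 0.09 (SE; 95% interval -0.14 to 0.24; edgeR adjusted p = 0.726). Cdk6 had 333, 353 and 344 CPM in Sora and 453, 262 and 372 CPM in Ctrl libraries, the widest control spread of the 9 tested genes. The 3 Sora libraries lay close together between the lowest and the highest control, and the log2 fold change was -0.08 ± 0.16 (SE; 95% interval -0.43 to 0.27; edgeR adjusted p = 0.788). Both results rest on Ctrl replicate 2, the highest control library for Cdk4 and the lowest for Cdk6. Without it Cdk4 was called higher (log2 fold change 0.15, edgeR adjusted p = 0.0468) and Cdk6 lower (log2 fold change -0.26, adjusted p = 0.00827), in a fit in which 31.8% of all tested genes were called.

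**Figure D4:**
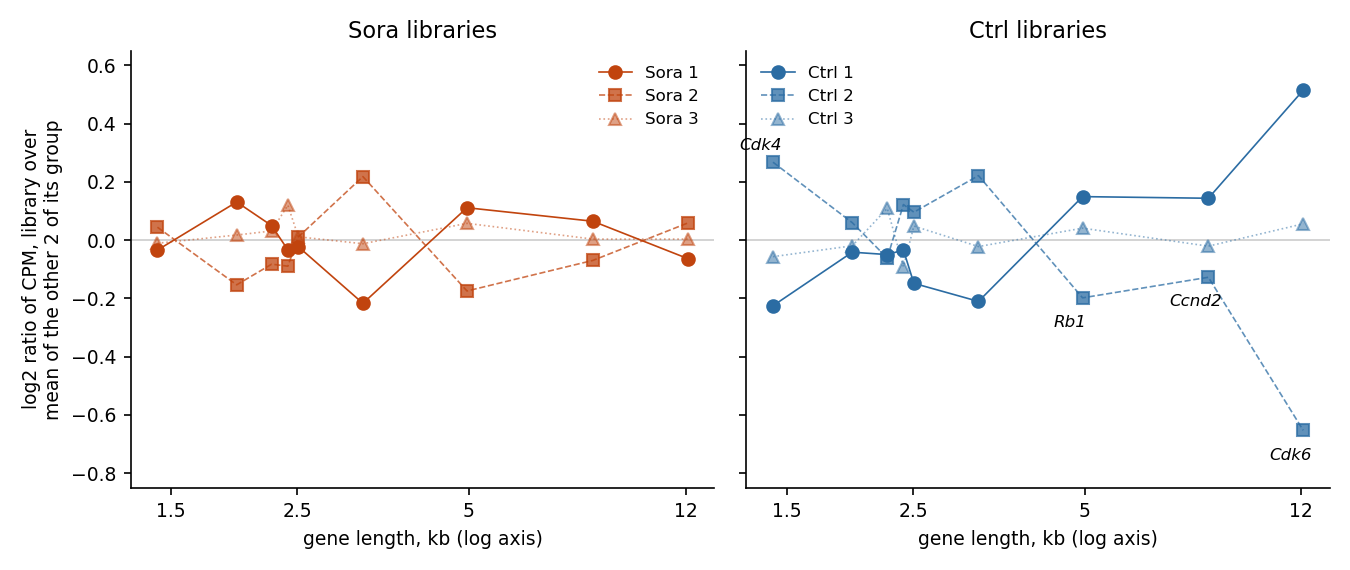
Log2 ratio of the CPM in each library to the mean of the other 2 libraries of its group, against gene length in kb on a log axis, for the 9 tested genes, with 1 line per library. Ctrl 2 runs downward to the right, at 0.27 for Cdk4, the shortest gene, and -0.65 for Cdk6, the longest, Ctrl 1 runs the opposite way, and the Sora libraries stay within 0.22 of 0.

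Cdk4, at 1420 bases the shortest of the 10 genes, and Cdk6, at 12096 bases the longest, stood at the ends of the length trend of the control libraries. In Ctrl replicate 2 the log2 ratio to the other controls was 0.27 for Cdk4, -0.13 for Ccnd2, -0.20 for Rb1 and -0.65 for Cdk6. Ctrl replicate 1 showed the opposite order, with -0.23 for Cdk4 and 0.51 for Cdk6. Ctrl replicate 2 is part of the mean that Ctrl replicate 1 is set against, so these orders are not independent. With the trend on gene length removed from each library, Cdk6 had 338, 357 and 345 CPM in Sora and 414, 301 and 362 CPM in Ctrl, still overlapping, and its log2 fold change was -0.05 (edgeR adjusted p = 0.756). Cdk4 then had 159.8, 163 and 162 CPM in Sora and 145, 157 and 157 CPM in Ctrl, without overlap, and did not pass the test (log2 fold change 0.08, edgeR adjusted p = 0.369). Within a library, Cdk6 made up 19.9%, 20.2% and 20.2% of the summed Cdk4 and Cdk6 FPKM in Sora and 27.7%, 15% and 22.5% in Ctrl. The share was tight in Sora and wide in Ctrl, and the groups overlapped (exact permutation p = 0.7, two-sided). The summed level of both kinases was 141, 149 and 145 FPKM in Sora and 136, 133 and 136 FPKM in Ctrl libraries, without overlap (exact permutation p = 0.1, two-sided). This separation rests on the scaling by total counts. The TMM factor of Ctrl replicate 2 was the lowest, at 0.922, and in TMM-scaled CPM each kinase overlapped between the groups.

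Cdk4 is a known target of the transcription factor Myc, which binds the E-box CACGTG, so the promoter is shown here with the E-boxes in capitals, as the 250 bases before the RefSeq start, chr10:127063285-127063534 on the plus strand of GRCm38.p6.
Cdk4: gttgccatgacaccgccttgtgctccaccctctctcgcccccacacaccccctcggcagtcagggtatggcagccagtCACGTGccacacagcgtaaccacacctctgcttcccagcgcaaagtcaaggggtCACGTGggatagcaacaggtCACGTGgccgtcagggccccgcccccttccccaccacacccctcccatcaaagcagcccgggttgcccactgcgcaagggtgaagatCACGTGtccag
This window holds 4 E-boxes, and 6.02% of 32851 RefSeq windows of the same length hold at least 1. Of the 10 genes, 6 had an entry, and the other windows, of Ccnd3, Ccne1, Cdk6, Cdkn1b and Cdkn2c, held 1 E-box in Cdk6 and none in the rest. None of these windows held TTTCCCGC, TTTGGCGC, TTTCGCGC or TTTGCCGC on either strand, spellings of the E2F motif present in 1.86% of all windows. Myc averaged 261 ± 32.3 CPM in Sora and 302 ± 35.1 CPM in Ctrl libraries (SD, n = 3 each; edgeR adjusted p = 0.212), overlapping groups, and the Cdk4 values stand above.

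Cdk4 shares 641 exonic bases with Tspan31, a tetraspanin gene on the opposite strand. Tspan31 rose 1.28-fold, to 60.6 ± 3.41 CPM in Sora, against 47.5 ± 5.14 CPM in Ctrl (SD, n = 3 each; edgeR adjusted p = 0.0228), a call lost without Ctrl replicate 1 or any 1 Sora replicate (adjusted p at most 0.121). With no strand setting given, reads in the shared stretch cannot be told apart.

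Of the inhibitors, Cdkn1b (p27Kip1) had 159.9, 155.7 and 171 CPM in Sora and 181, 194 and 176 CPM in Ctrl libraries. Each Sora library was lower than each control library in CPM, while the FPKM values overlapped. The log2 fold change was -0.18 ± 0.07 (SE; 95% interval -0.33 to -0.02, not adjusted) and did not pass (edgeR adjusted p = 0.113). Over the 18 alternatives Cdkn1b was below 0 in all and called in 0, with adjusted p from 0.0545 to 0.364. Groups that do not overlap in CPM were seen for 3 of the 9 tested G1 genes (Ccne2, Cdkn1b and Cdkn2c), which is 33.3%, against 36.3% of all tested genes. An unadjusted p under 0.05 was found for 2 of the 9, Ccne2 and Cdkn1b, against 30.9% of all tested genes.

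Cdkn2c (p18INK4c) was a low transcript, with 56, 52 and 56 counts in Sora and 61, 56 and 66 counts in Ctrl libraries. Scaled to CPM these were 1.44, 1.36 and 1.43 in Sora and 1.64, 1.63 and 1.76 in Ctrl, without overlap. At this depth the log2 fold change of -0.25 ± 0.23 (SE; edgeR adjusted p = 0.524) had a 95% interval from -0.76 to 0.27, the widest of the 9 genes, so a fold between 0.59 and 1.20 could not be separated from none.

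Rb1, the substrate of the D cyclin kinases, had 109, 95.7 and 107 CPM in Sora and 108, 91.8 and 103 CPM in Ctrl libraries. The groups overlapped almost fully, and the log2 fold change was 0.04 ± 0.08 (SE; 95% interval -0.14 to 0.23; edgeR adjusted p = 0.778). Rb1 shares 408 exonic bases with Lpar6, a lysophosphatidic acid receptor gene, and 488 with Rcbtb2, both on the opposite strand. Lpar6 rose 2.47-fold, to 5.86 ± 0.665 CPM in Sora, against 2.37 ± 0.408 CPM in Ctrl, and Rcbtb2 rose 1.79-fold, to 11.8 ± 0.993 CPM, against 6.62 ± 0.787 CPM in Ctrl (SD, n = 3 each; edgeR adjusted p of 0.000768 and 0.00144). Both stayed far below Rb1 in CPM.

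**Figure D5:**
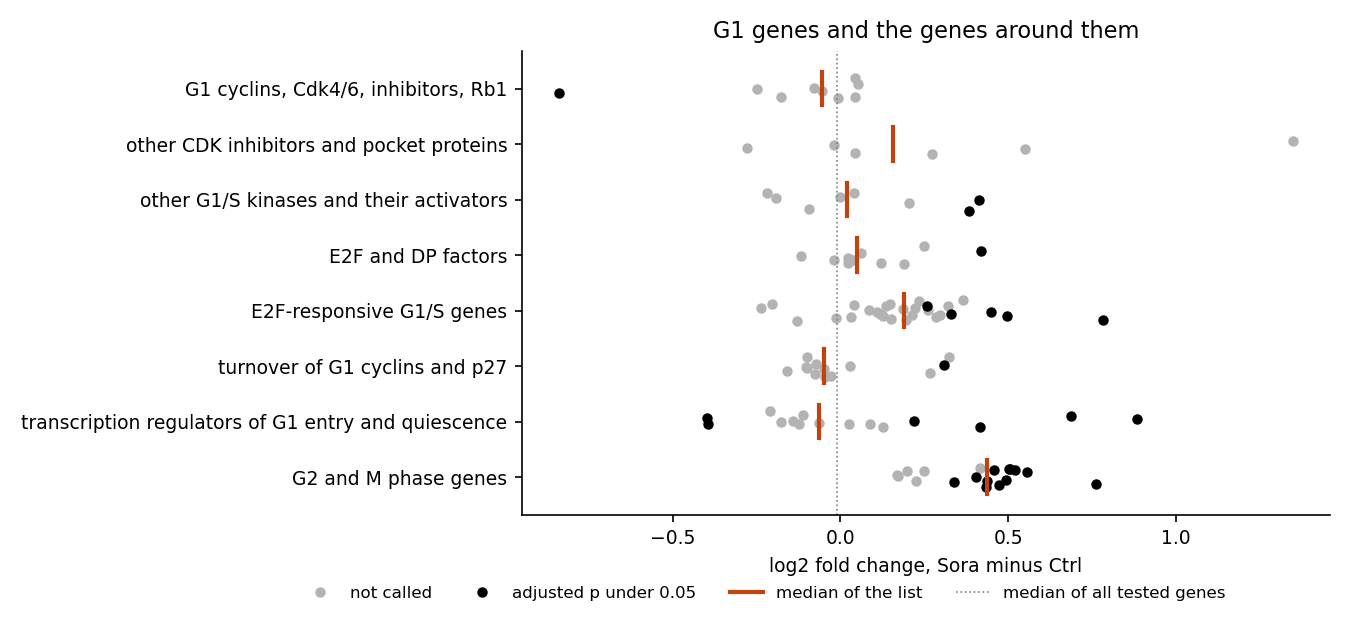
Log2 fold changes, Sora minus Ctrl, of the tested genes in the G1 set and in 7 lists of genes around it, 1 point per gene, black where the adjusted p was under 0.05, with the median of each list and of all tested genes. The G1 set sits near 0 apart from Ccne2, and all 18 G2 and M phase genes lie above 0.

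Genes on either side of the G1 set in the pathway were counted in 7 lists. The lists were chosen with earlier results of these data known, so the counts and the shares beside them are a description. Of 6 tested further inhibitors and Rb1 relatives, by edgeR 0 passed, with 3 at an unadjusted p under 0.05 (30.9% of all tested genes). DESeq2, which called 20.4% of all tested genes, called 1 of them, and limma-voom (18%) called 0. The smallest p was that of Cdkn2d, which encodes p19INK4d, another inhibitor of Cdk4 and Cdk6. It averaged 96.9 ± 5.62 CPM in Sora and 118 ± 13.3 CPM in Ctrl (SD, n = 3 each; log2 fold change -0.28, edgeR adjusted p = 0.0559), and was called lower in 5 of 18 alternatives. Without Ctrl replicate 2 the Cdkn2d log2 fold change was smaller, at -0.18, and was called (edgeR adjusted p = 0.0294). The other genes at an unadjusted p under 0.05 went up, Cdkn1c (log2 fold change 1.35, edgeR adjusted p = 0.0623) and Rbl2 (0.27, adjusted p = 0.0717). Cdkn1c was low, at 0.635 CPM in Sora and 0.248 CPM in Ctrl on average. The median log2 fold change of the 6 genes was 0.16. Of 8 tested G1/S kinases and activators, 2 rose and 0 fell, against 8.51% higher and 9.43% lower over all tested genes. Without Ctrl replicate 2, 3 rose and 1 fell (15% and 16.8% of all tested genes), and without Sora replicate 2 or 3 none was called. Ccna2, the cyclin A2 partner of Cdk2, rose 1.33-fold, to 26.6 ± 1.32 CPM in Sora, against 20 ± 1.69 CPM in Ctrl (edgeR adjusted p = 0.011). Ccnh, the cyclin of the kinase that activates other Cdks, rose 1.31-fold, to 27.6 ± 1.36 CPM, against 21.2 ± 2.7 CPM in Ctrl (edgeR adjusted p = 0.0279). The Ccna2 call was lost without Sora replicate 2 or 3 and in the unfiltered FPKM fit (adjusted p at most 0.0603), and the Ccnh call without any 1 library other than Ctrl replicate 2 (adjusted p up to 0.113).

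Downstream of Rb1, 1 of 10 tested E2F and DP factors rose and 0 fell, against 8.51% higher and 9.43% lower over all tested genes. This was E2f2, an activating E2F, at 33.6 ± 1.24 CPM in Sora and 25.1 ± 4.53 CPM in Ctrl (1.34-fold, edgeR adjusted p = 0.0356), a call lost without Ctrl replicate 3 or any 1 of the Sora replicates and in the unfiltered FPKM fit (adjusted p at most 0.135). Of 28 E2F-responsive genes of replication, 5 rose and 0 fell (17.9%), against 8.51% higher and 9.43% lower over all tested genes. In this list 24 of 28 were above 0, and the median log2 fold change was 0.19. Without Ctrl replicate 2, 11 rose, in a fit that called 15% of all tested genes higher. The list gave 1, 2 and 1 that rose without Sora replicate 1, 2 and 3, and 2 without Ctrl replicate 3, in fits that called 4.26%, 5.55%, 4.12% and 5.71% of all tested genes higher in that order. Tk1, thymidine kinase, rose 1.72-fold, to 13.5 ± 0.481 CPM in Sora, against 7.86 ± 0.683 CPM in Ctrl (edgeR adjusted p = 0.000813). Cdc45, a part of the replicative helicase, rose 1.36-fold (edgeR adjusted p = 0.00929), and Mcm3, a helicase subunit, rose 1.2-fold (edgeR adjusted p = 0.0224), while Ccne2, itself known as an E2F-responsive gene, fell. The Cdc45 call was lost without Sora replicate 1 or 3 (adjusted p up to 0.0552) and the Mcm3 call without Ctrl replicate 3 or any 1 Sora replicate and in the unfiltered FPKM fit (adjusted p at most 0.112).

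Genes of G2 and mitosis, the phases after those the G1 set controls, rose in 12 of 18 and fell in 0, against 8.51% of all tested genes that rose. Without Ctrl replicate 2, 12 of 18 rose (15% of all tested genes), without Sora replicate 3, 5 rose (4.12%), and without Ctrl replicate 3, 7 rose (5.71%). Their median log2 fold change was 0.44, against -0.01 over all tested genes. Gtse1, a protein of G2 and S phase, rose 1.7-fold, to 97 ± 3.67 CPM in Sora, against 57.2 ± 2.62 CPM in Ctrl (edgeR adjusted p = 6.55e-05). Cdca8, a subunit of the chromosomal passenger complex, rose 1.39-fold (edgeR adjusted p = 0.00367), and Ube2c, a ubiquitin-conjugating enzyme of mitotic exit, rose 1.35-fold (edgeR adjusted p = 0.00434).

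Upstream, the 15 tested regulators of G1 entry and quiescence held 4 that rose and 2 that fell, which is 40% against 17.9% of all tested genes. Without Ctrl replicate 2, 4 rose and 4 fell (31.8% of all tested genes called). Without Sora replicate 1 or 3, 2 rose and 0 fell (9.51% and 9.15% of all tested genes called). Klf2, a factor of T cell quiescence, rose 1.85-fold, to 15 ± 0.697 CPM in Sora, against 8.12 ± 0.0438 CPM in Ctrl (edgeR adjusted p = 0.000218). Tob1, an inhibitor of T cell proliferation, rose 1.33-fold, to 30.1 ± 1.37 CPM, against 22.6 ± 1.34 CPM in Ctrl (edgeR adjusted p = 0.00669). Fosl1 rose 1.61-fold (edgeR adjusted p = 0.0398) and Ets1 fell 1.31-fold (edgeR adjusted p = 0.013), and both calls were lost without Sora replicate 1 or 3. Btg1 and Btg2 were not called (edgeR adjusted p of 0.269 and 0.861). Of 3 tested FOXO genes, whose products are known to activate Cdkn1b, 1 fell and 1 rose. Foxo4 fell 1.32-fold, to 24.9 ± 1.29 CPM, against 32.8 ± 2.42 CPM in Ctrl (edgeR adjusted p = 0.00993), a call lost without Sora replicate 1 or 3 and on FPKM (adjusted p up to 0.135). Foxo3 rose 1.16-fold, to 238 ± 7.58 CPM in Sora, against 204 ± 6.28 CPM in Ctrl (edgeR adjusted p = 0.0404), a call held in 11 of 18 alternatives and lost without Ctrl replicate 3 or any 1 Sora replicate (adjusted p at most 0.211). Foxo1 averaged 302 ± 12.1 CPM in Sora and 326 ± 38.3 CPM in Ctrl (edgeR adjusted p = 0.458), and was called lower without Ctrl replicate 2 (log2 fold change -0.20, edgeR adjusted p = 0.00793). Of 13 tested genes of cyclin and p27Kip1 turnover, 1 rose and 0 fell, against 8.51% higher and 9.43% lower over all tested genes. Without Ctrl replicate 2, 3 of these rose, in a fit that called 15% of all tested genes higher. Ubac1, a subunit of a ubiquitin ligase for p27Kip1, rose 1.24-fold, to 34 ± 2.47 CPM in Sora, against 27.5 ± 1.91 CPM in Ctrl (edgeR adjusted p = 0.0369), a call lost without any 1 library other than Ctrl replicate 2 and with replicate number as a block (adjusted p up to 0.169).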

How the data were processed

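RNA-seq of 3 Sora and 3 Ctrl libraries was grouped by sample titles. Counts (whole numbers per gene) and FPKM were deposited. In the deposited FPKM table each value equals the count scaled by column total and a gene length, which gave the lengths used. The tools listed in the submitters' processing notes are HISAT2, fastp, DESeq2, HTSeq and R 3.2.0, and the build is GRCm39. Their roles, the strand setting and the treatment of shared reads: not given in the sources used here.

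Genes were filtered with filterByExpr, leaving 13255 of 21233, scaled by TMM and tested in R 4.3.3 with edgeR 4.0.16 (quasi-likelihood, robust, group as the sole term, common biological coefficient of variation 10.9%). Standard errors came from the F statistic, and 95% intervals from its total degrees of freedom. A count of 0 allows up to 3 counts, 0.0766 to 0.0871 CPM, for counting error alone. Members and lists were chosen with earlier results of these data known. Named were all 10 members, up to 3 called genes per list or the 1 with the smallest p, the 3 genes most like the most changed member, and annotated overlapping genes (GENCODE vM21, GRCm38). Overlapping genes, Myc, Foxo1, Foxo3, Fosl1, Ets1, Btg1, Btg2, Cdkn1c, Rbl2 and single markers were chosen after their values were seen. Alternatives were other scalings, filters, DESeq2 1.42.0, limma 3.58.1 (voom, and log2(FPKM + 1) or log2(FPKM + 0.1) with and without a minimum mean FPKM of 0.5), a replicate block, a length correction and leaving out each library. Marker lists for CD8 T cells, macrophages and dendritic cells, mast cells, NK cells and erythroid cells are given at the end. The result of 1 further marker list is not reported here.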

Additional observations from a re-analysis of the deposited data

How the results depend on the processing

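Of the 9 tested G1 genes, the Ccne2 call and the absence of a call for Ccnd2, Ccnd3, Ccne1, Cdkn1b, Cdkn2c and Rb1 held in all 18 alternatives. Leaving out each library in turn moved the log2 fold change of Cdk4 between -0.020 and 0.15 and that of Cdk6 between -0.26 and 0.11, and the G1 genes called between 1 and 3. The number of all genes called lay between 1243 and 4325 without 1 library, and was 1423 on log2(FPKM + 1) with no filter. Without 1 library the lists gave 0 to 2 called further inhibitors, 0 to 4 kinases and activators, 0 to 2 E2F factors, 1 to 11 E2F-responsive genes, 0 to 3 turnover genes, 2 to 8 regulators and 5 to 12 G2 and M genes. Those fits called 9.15% to 31.8% of all tested genes. Of the further inhibitors, 1 rose with upper-quartile factors and 1 fell by DESeq2. With no filter or the replicate block 1 rose and 1 fell, and with the length trend removed 2 rose and 1 fell. Higher calls over all tested genes were 10.3%, 5.86%, 7.78% and 11.5% with upper-quartile factors, no filter, replicate block and length trend removed. Lower calls were 10.7% by DESeq2, and 6.06%, 8.36% and 12.3% with no filter, replicate block and length trend removed. E2F-responsive genes called were 8 with upper-quartile factors, total counts, DESeq2 or the length trend removed, and 10 on filtered FPKM with either pseudocount. All of these rose. In that order, higher calls over all tested genes were 10.3%, 11.3%, 9.71% and 11.5%, and 12.7% and 12.5% on filtered FPKM. Turnover genes called were 2 with upper-quartile factors or the length trend removed, 3 with total counts or filtered FPKM with either pseudocount, and 0 with the replicate block. These calls too were all higher, and the block fit called 7.78% of all tested genes higher. On unfiltered log2(FPKM + 1), the lists gave 1 kinase or activator, 0 E2F factors, 2 E2F-responsive genes, 2 regulators and 7 G2 and M genes. Each of these calls was higher, in a fit that called 4.25% of all tested genes higher. The cause of these shifts was not tested. No scaling moved the median of all genes by more than 0.08 on the log2 scale. Same-numbered libraries deviated together with r of -0.06, 0.15 and 0.10 across genes for numbers 1 to 3. Sora replicates 2 and 3 correlated best with the control of the same number, and Sora replicate 1 with Ctrl replicate 3 (r of 0.09). Whether the numbers pair the samples cannot be told from these values. With replicate number as a block 2139 genes were called, Ccne2 among them, and the paired exact permutation could not go below p = 0.25. Depth limits Ccnd1 and Cdkn2c most.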

Other observations

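Marker lists of other cell types were summed in TMM-scaled CPM. CD8 T cell genes summed to 8.89 to 11.1 CPM in Sora and 6.17 to 7.09 CPM in Ctrl libraries, with 1 of 2 tested higher (8.51% of all tested genes). Macrophage and dendritic cell genes summed to 7.43 to 9.14 CPM in Sora and 6.14 to 8.97 CPM in Ctrl. Of 4 tested, 0 were called by edgeR, 0 by DESeq2 and 0 by limma-voom. By edgeR 2 had an unadjusted p under 0.05 (30.9% of all tested genes). Mast cell and basophil genes summed to 18.2 to 19.4 CPM in Sora and 16.7 to 18 CPM in Ctrl, and NK cell and erythroid genes to at most 0.581 CPM in any library. Of 6 tested Th9 genes 3 were higher, against 8.51% of all tested genes. These sums were not tested against the G1 genes.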
